A study of Sus scrofa with 15 samples.

Results

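The cytosolic ribosomal protein genes were followed through 3 NK cell populations of the pig. The set was made of every gene whose symbol is RPL or RPS followed by a number, with an optional letter and an optional L, together with RPLP0, RPLP1, RPLP2 and RPSA, and without the S6 kinases. This gave 80 of the 29886 genes in the count table, 48 of the large subunit and 32 of the small subunit. RNA came from 5 pigs, 6 months old and not described as treated or genetically altered, whose breed and sex are not given in the sources used here. From each pig, cells negative for CD3 and CD172a were enriched with magnetic beads and sorted by FACS as CD8α high NK cells of blood (cNK cells), CD8α high NK cells of the liver, or CD8α dim NK cells of the liver (lrNK cells). The liver cells were taken from a last flush of an organ already perfused with cold buffer, and the populations of a pig share the animal, so the 15 libraries are 5 matched sets. The libraries read polyadenylated transcripts near their 3′ end, so a count does not grow with transcript length and levels in CPM (counts scaled to a library of 1000000) can be set side by side between genes, apart from differences in how well each transcript end was captured and annotated.

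Ribosomal proteins build, together with ribosomal RNA, the machine that makes all other proteins, and most are present once in each ribosome. Most of their mRNAs begin with a stretch of pyrimidines, the 5′ terminal oligopyrimidine (TOP) motif, through which growth signals passing over mTOR and LARP1 set how strongly they are translated. Resting lymphocytes keep these mRNAs abundant and raise ribosome production when they are activated.

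The libraries held between 2003499 and 5680221 counts, of which 205045 to 573761 fell on the ribosomal protein genes. All 9 NK cell markers were counted in every library, and CD4, CD79A and CSF1R were at 0 in every library of all populations. The hepatocyte markers were at 0 in cNK cells and summed to at most 6.74 CPM in the liver cells. The 5 B cell markers summed to 10.9 to 109 CPM in cNK cells, 0 to 44.2 CPM in liver CD8α high cells and 214 to 685 CPM in lrNK cells, with 4 of the 5 counted in every lrNK library and CD79A at 0. Plasma cell markers (JCHAIN and XBP1) summed to 78.6 to 118 CPM in the CD8α high populations and 104 to 489 CPM in lrNK cells. The 5 T cell markers moved the other way, with sums of 637 to 1200 CPM in cNK cells, 714 to 1079 CPM in liver CD8α high cells and 110 to 593 CPM in lrNK cells, where CD4 and CD8B were at 0 and 2 of the 5 were counted in every library. Genes of the mitochondrial genome took 4.18 to 5.41% of counts in cNK cells, 3.92 to 4.48% in liver CD8α high cells and 3.43 to 4.22% in lrNK cells. These 3 marker lists moved with the lrNK population. The mitochondrial share was lower in both liver populations, with means of 4.96% in cNK, 4.17% in liver CD8α high and 3.79% in lrNK cells. The part of these lists and of this share in the results below was not tested. The lrNK libraries of pig 3 and pig 4 stood apart from the other lrNK libraries over the ribosomal protein genes, in ways described below, and the counts of calls are also given without them.

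Of the 80 genes, 78 passed the filter on low counts and were tested. The exceptions were RPL10L, a paralog best known from testis, with 0 counts in all libraries, and RPL3L, a paralog best known from striated muscle, with 2 counts, both in a single lrNK library. At 0 counts the limit is 3 counts per library, so low expression of RPL10L was not detectable at this depth. All 32 small subunit genes and 46 large subunit genes passed. The genes lie on 17 chromosomes of Sscrofa11.1 in the RefSeq table, with 13 on chromosome 1, 12 on chromosome 6 and 4 on X (RPL10, RPL36A, RPL39 and RPS4X). Their median gene length was 3900.5 bases, against 20623 bases for 19563 protein-coding genes. The symbol RPL18 has 2 loci in that table, on chromosomes 1 and 6, and which of them its counts belong to was not tested.

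The ribosomal protein genes took about 1 in 9 counts of every population, and the populations overlapped in this share. In cNK cells they held 11.4, 12.9, 11.7, 11.4 and 9.99% of all gene counts in pigs 1 to 5, a mean of 11.5 ± 1.05% (SD, n = 5). In liver CD8α high cells the shares were 11.96, 11.89, 11.98, 9.90 and 10.1%, a mean of 11.2 ± 1.07%. In lrNK cells they were 10.9, 12.5, 10.2, 15.2 and 9.83%, a mean of 11.7 ± 2.19%. The lrNK share exceeded that of cNK cells in only 1 of 5 pigs, pig 4, whose lrNK library had the largest share of all 15. The difference between lrNK and cNK cells was 0.251 ± 2.05 percentage points (mean and SD over pigs), and between liver and blood CD8α high cells -0.308 ± 0.899 points. Without pig 4 the lrNK mean was 10.9%, the difference between lrNK and cNK cells turned to -0.639 ± 0.585 points (n = 4), and that between liver and blood CD8α high cells was -0.0135 ± 0.708 points. Fewer cells of a type and less RNA per cell cannot be told apart in sorted bulk samples, and a share of counts says nothing about ribosomes per cell.

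**Figure D1:**
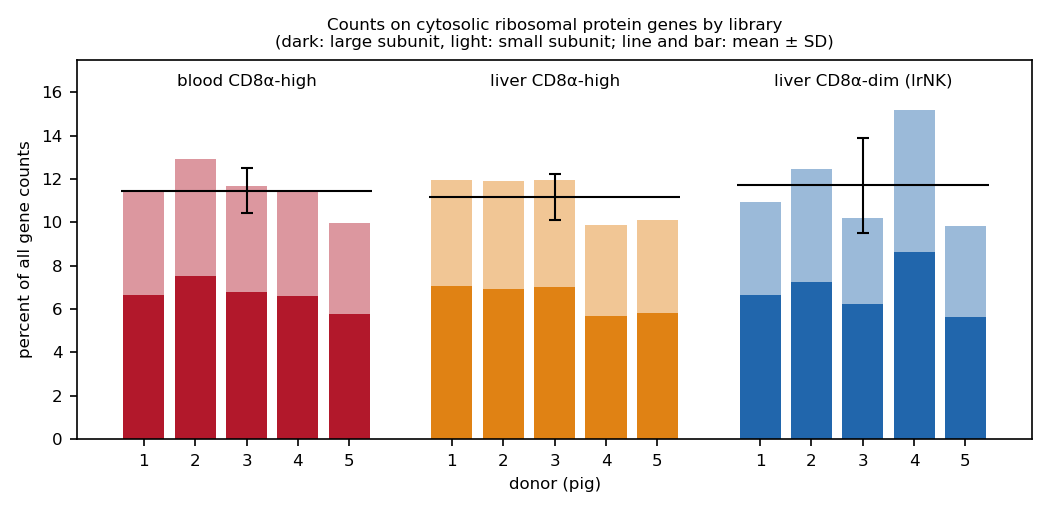
Counts on cytosolic ribosomal protein genes as percent of all gene counts (y axis) in each of 15 libraries (x axis, pig 1 to 5 within each population). Dark bars are large and light bars small subunit genes, lines with error bars are means ± SD (n = 5), and the lrNK library of pig 4 reaches 15.2% while the other 14 lie between 9.83 and 12.9%.

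Large subunit genes held 6.66 ± 0.631% of counts in cNK cells, 6.50 ± 0.678% in liver CD8α high cells and 6.89 ± 1.14% in lrNK cells. Small subunit genes held 4.81 ± 0.418%, 4.66 ± 0.392% and 4.84 ± 1.08%. The ratio of large to small subunit counts was narrow in the CD8α high populations, 1.36 to 1.40 in cNK cells and 1.35 to 1.44 in liver CD8α high cells. In lrNK cells it was 1.57, 1.38, 1.58, 1.32 and 1.36 in pigs 1 to 5, so the lrNK libraries of pigs 1 and 3 lay above every CD8α high library and that of pig 4 below them all.

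The genes were abundant but far from equal in level. The median over the 78 genes was 1209 CPM, against 27.4 CPM for all 10939 genes tested, 45 exceeded 1000 CPM, and 41 were among the 100 genes with the highest mean. RPS29, a small zinc-binding protein of the small subunit, was the highest with a mean of 4477 CPM over all libraries, which placed it 9th among all genes tested. It was followed by RPL37, a zinc-binding protein of the large subunit, RPL5, which carries the smallest ribosomal RNA into the large subunit, and RPL23 and RPL23A, which sit at the face that joins the subunits and at the exit tunnel. These 5 genes held 17.2% of the counts on the set. RPS27L was the lowest of the tested genes at 145 CPM, 30.9-fold below RPS29. The median level was 1040 CPM for large subunit genes and 1450 CPM for small subunit genes. The order of levels was closely shared by the populations. Across the 78 genes, Pearson's r of mean log2 CPM was 0.997 between cNK and liver CD8α high cells, 0.974 between cNK and lrNK cells and 0.976 between the liver populations. These are correlations across genes, which share libraries and are not independent replicates.

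**Figure D2:**
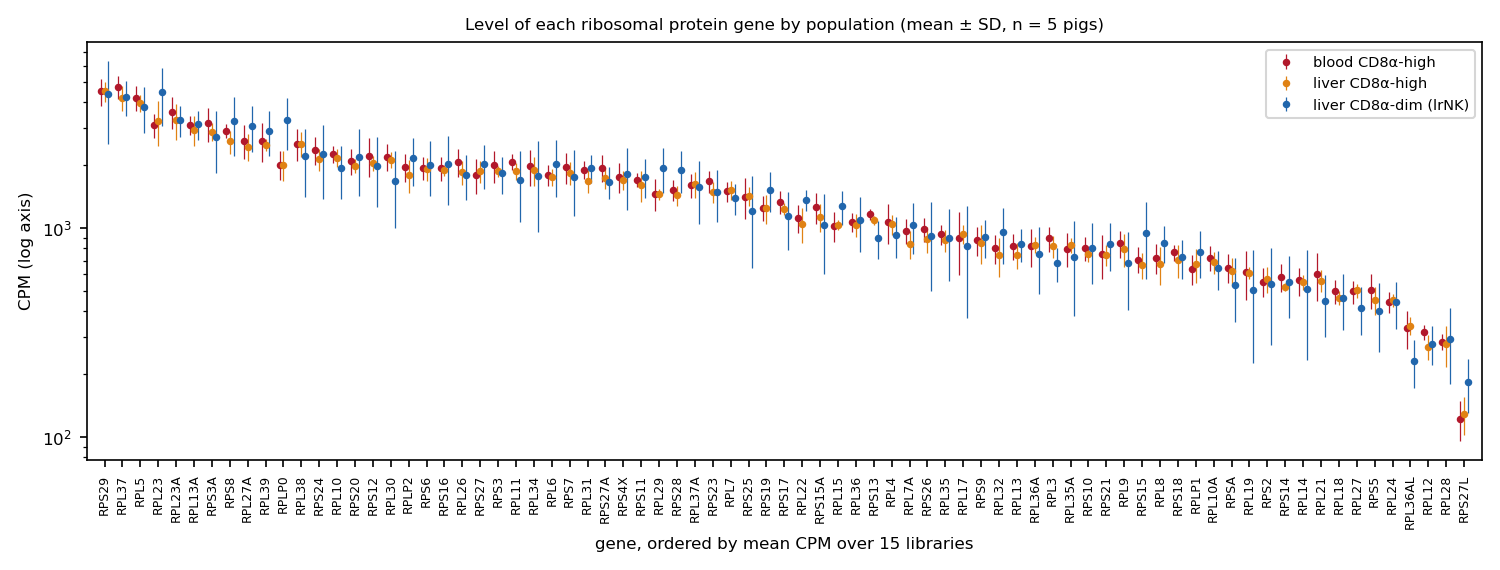
Mean level of 77 of the 78 tested genes in the 3 populations (y axis, CPM on a log axis), ordered by the mean over 15 libraries, with bars for SD over 5 pigs. The levels run from 4477 CPM for RPS29 to 145 CPM for RPS27L, the 3 populations follow the same order closely, and the error bars of lrNK cells are often the widest.

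The 5 most abundant genes did not pass the test in any comparison, though RPL23 did in some alternative settings. RPS29 was at 3787, 5282, 4837, 4790 and 3879 CPM in cNK cells of pigs 1 to 5, at 4584, 4845, 5126, 3993 and 4032 CPM in liver CD8α high cells, and at 3709, 5048, 1803, 6946 and 4490 CPM in lrNK cells. Its lrNK values held both the lowest and the highest of the 15, and the groups overlapped. RPL37 averaged 4752 ± 598 CPM in cNK, 4204 ± 569 CPM in liver CD8α high and 4255 ± 831 CPM in lrNK cells, and RPL5 4211 ± 588, 3972 ± 372 and 3809 ± 948 CPM. RPL23 averaged 3115 ± 417, 3271 ± 791 and 4485 ± 1387 CPM, the only one of the 5 with its highest mean in lrNK cells. RPL23A averaged 3616 ± 617, 3282 ± 642 and 3300.3 ± 560 CPM. From cNK to lrNK cells the log2 fold change was -0.04 for RPS29 (95% interval -0.52 to 0.44), -0.16 for RPL37 (-0.48 to 0.16), -0.14 for RPL5 (-0.47 to 0.18) and -0.13 for RPL23A (-0.48 to 0.22). Leaving out a pig moved RPL5 between -0.29 (without pig 4) and -0.07 (without pig 2). It moved RPL23A between -0.20 (without pig 4) and -0.06 (without pig 1). The log2 fold change of RPL23, given below, ran from 0.43 to 0.67 when a pig was left out. RPL23 was called higher without pig 3, with library totals alone and with scaling to the summed counts of the set.

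In lrNK against cNK cells, RPLP0 rose and no other ribosomal protein gene passed the test. By edgeR's quasi-likelihood test, with p adjusted by Benjamini-Hochberg over every gene tested, 1 of 78 was called higher at an adjusted p under 0.05 and 0 lower, while 8.62% of all genes tested were called higher and 9.60% lower. The log2 fold changes of the 78 ran from -0.52 to 0.71 with a median of -0.08, against a median of 0.01 over all genes, with quartiles of -0.21 and 0.09, against -0.44 and 0.45 for all genes. Before adjustment 9 genes of the set had a p under 0.05, 6 higher and 3 lower, where 29.5% of all genes did. DESeq2 called 3 higher (RPL29, RPLP0 and RPS27L) and 3 lower (RPL3, RPL36AL and RPS13), where it called 9.10% of all genes higher and 9.34% lower. The 95% interval of the fold change stayed within 1 log2 unit of no change for 76 of 78 genes, the exceptions being RPLP0 and RPS27L, and within 0.5 for 25. RPLP0 was also the only member whose lrNK and cNK values did not overlap, 1.28% of the set, where 13.5% of all genes tested did not.

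The count of falling genes depended on the lrNK library of pig 4, in which most of the set was high. Without that library 5 genes were called lower (RPL10, RPL11, RPL30, RPL36AL and RPS13), where 8.76% of all genes were, and the median moved to -0.21. Without all 3 libraries of pig 4, 4 were called lower (RPL3, RPL11, RPL36AL and RPS13; all genes 7.51%), with a median of -0.22. Without the lrNK library of pig 3, RPL23 was called higher beside RPLP0 (all genes 9.93%) and RPL3 was called lower (all genes 10.7%), with a median of 0.00. Without all libraries of pig 3 RPL23 and RPLP0 were called higher (all genes 8.13%), and without those of pig 5 RPLP0 and RPS27L (all genes 6.43%). With the pig as a replicate block, 1 gene, RPL36AL, was called lower (all genes 10.6%).

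**Figure D3:**
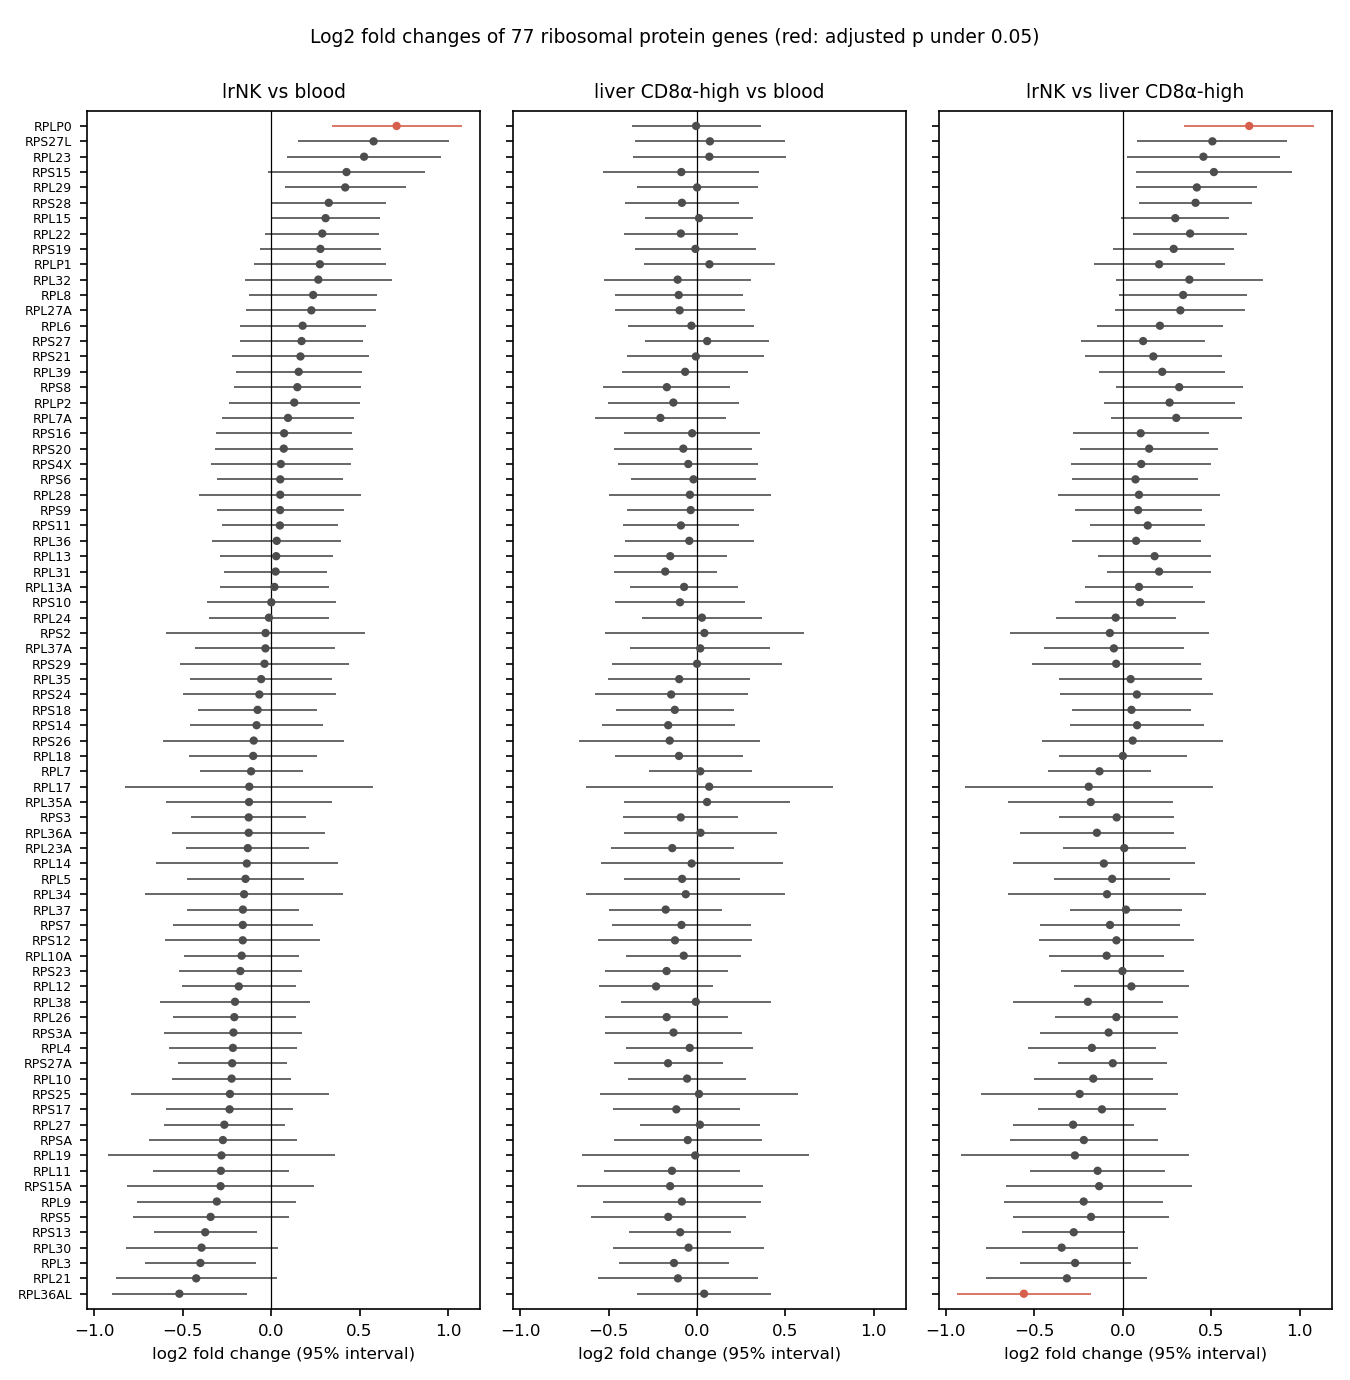
Log2 fold change of 77 of the 78 tested genes (x axis, points, with 95% intervals as lines) in the 3 comparisons, ordered by lrNK against cNK cells. Red marks an adjusted p under 0.05 and is found on RPLP0 in both lrNK comparisons and on RPL36AL in lrNK against liver CD8α high cells.

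RPLP0 is the base of the stalk of the large subunit, the flexible arm that recruits the GTPase factors of translation, and carries dimers of RPLP1 and RPLP2. RPLP0 was at 2096, 2477, 2057, 1809 and 1630 CPM in cNK cells of pigs 1 to 5. It was at 2346, 2192, 2196, 1644 and 1658 CPM in liver CD8α high cells, and at 3194, 2852, 2886, 4902 and 2631 CPM in lrNK cells. Every lrNK library was above all 10 CD8α high libraries, and pig 4 was the highest. The means were 2014 ± 321, 2007 ± 331 and 3293 ± 922 CPM (n = 5 each). The log2 fold change from cNK to lrNK cells was 0.71 ± 0.18 (SE), or 1.64-fold, with an adjusted p of 0.00656 from edgeR's quasi-likelihood test, and the rise was seen in 5 of 5 pigs. From liver CD8α high to lrNK cells it was 0.71 ± 0.18, with an adjusted p of 0.00738, again in 5 of 5 pigs. These comparisons share the lrNK libraries.

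Leaving out each pig in turn gave log2 fold changes of RPLP0 between 0.48 and 0.84 against cNK cells, with adjusted p between 0.00947 and 0.0447. Against liver CD8α high cells the range was 0.46 to 0.79, and the call was lost without pig 4, with an adjusted p of 0.0649. Leaving out only the lrNK library of pig 4 gave 0.54 and 0.53, with adjusted p of 0.0156 and 0.0202. Summed B cell markers in the lrNK libraries of pigs 1 to 5 were 433, 632, 214, 685 and 251 CPM. Pig 4 was highest in both measures, while the other pigs were ordered differently in them. Summed plasma cell markers there were 104, 457, 489, 436 and 284 CPM, with pig 3 highest. Summed T cell markers there were 593, 110, 120, 383 and 291 CPM, and the mitochondrial share was 3.67, 3.84, 3.79, 4.22 and 3.43%, with pig 4 highest in the share only. The part of other cells or of the mitochondrial share in the RPLP0 level was not tested.

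The other stalk proteins did not share a called change. RPLP1 was at 699, 769, 663, 521 and 540 CPM in cNK cells, at 680, 706, 859, 564 and 543 CPM in liver CD8α high cells, and at 836, 645, 702, 1084 and 595 CPM in lrNK cells. RPLP2 was at 2113, 2411, 1903, 1607 and 1813 CPM in cNK cells, at 2078, 2075, 1935, 1384 and 1505 CPM in liver CD8α high cells, and at 1849, 1892, 2509, 2951 and 1581 CPM in lrNK cells. The groups overlapped for RPLP1 and RPLP2. From cNK to lrNK cells the log2 fold change was 0.28 ± 0.18 for RPLP1 (95% interval -0.10 to 0.65) and 0.13 ± 0.18 for RPLP2 (-0.24 to 0.50), with adjusted p of 0.333 and 0.688 from edgeR's quasi-likelihood test. Leaving out a pig moved the value of RPLP1 between 0.06 (without pig 4) and 0.41 (without pig 2), and without the lrNK library of pig 4 alone it was 0.14. The difference between the change of RPLP0 and that of its partners was not tested. Counts of RPLP0 per count of RPLP1 and RPLP2 together were 0.774 ± 0.0591 in cNK, 0.816 ± 0.0303 in liver CD8α high and 1.13 ± 0.133 in lrNK cells, with lrNK values of 0.899 to 1.21 against a highest CD8α high value of 0.851. Within the set, RPLP0 took 1.71 ± 0.126% of the counts in cNK, 1.79 ± 0.121% in liver CD8α high and 2.80 ± 0.256% in lrNK cells. Scaling each library to the summed counts of the set, an alternative added after seeing the data, left RPLP0 at 0.71 ± 0.13 against cNK cells (adjusted p = 0.000395) and 0.65 ± 0.13 against liver CD8α high cells (adjusted p = 0.00123).

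**Figure D4:**
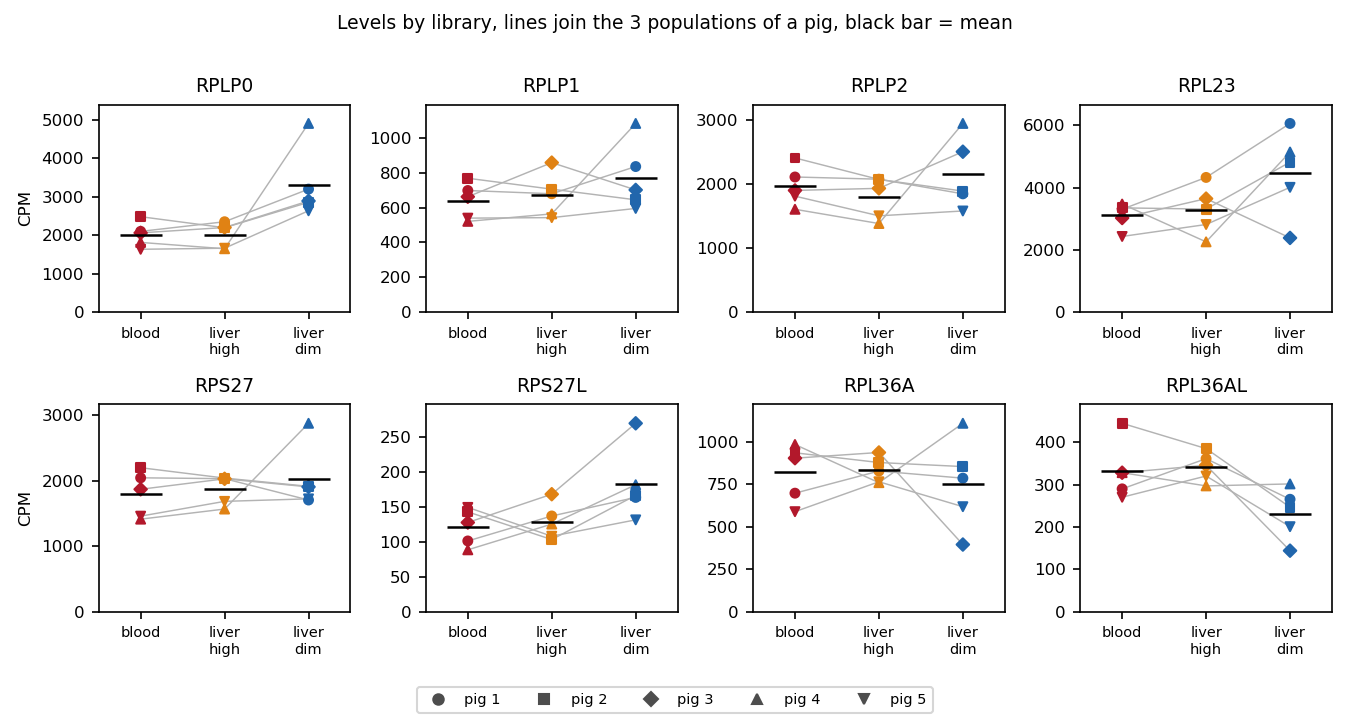
Level in CPM (y axes, from 0) of RPLP0, RPLP1, RPLP2, RPL23, RPS27, RPS27L, RPL36A and RPL36AL in blood, liver CD8α high and liver CD8α dim NK cells (x axes). Symbols are pigs, grey lines join the populations of a pig and black bars are means, and only for RPLP0 do all 5 lrNK points lie above every other point.

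RPL36AL, a paralog of the X-linked RPL36A whose protein is nearly the same, was low in lrNK cells. It was at 290, 445, 328.1, 328.1 and 270 CPM in cNK cells of pigs 1 to 5, at 361, 385, 346, 297 and 320 CPM in liver CD8α high cells, and at 265, 247, 144, 302 and 201 CPM in lrNK cells. Only the lrNK library of pig 4 reached into the range of liver CD8α high cells, and in that pig the lrNK value was the higher of the liver pair. Against liver CD8α high cells RPL36AL fell by 0.56 on the log2 scale (SE 0.18), with an adjusted p of 0.0436 from edgeR's quasi-likelihood test, in 4 of 5 pigs. Against cNK cells the value was -0.52 ± 0.18 in 5 of 5 pigs, with an adjusted p of 0.0535, which became 0.0380 with the pig as a replicate block and 0.0364 in DESeq2. The call against liver CD8α high cells was lost without pig 1, 2, 3 or 5 (adjusted p of 0.0882, 0.113, 0.150 and 0.153). The log2 fold changes in these fits were -0.59, -0.54, -0.43 and -0.53. It was also lost without the lrNK library of pig 3 (log2 fold change -0.43, adjusted p 0.0777). The same shifts of B cell, plasma cell and T cell markers accompanied the RPL36AL values. The mitochondrial share was lower in lrNK than in cNK cells, but was lower in liver CD8α high cells too. The part of these markers and of this share in the RPL36AL values was not tested. RPL36A averaged 821 ± 170 CPM in cNK, 832 ± 75.6 CPM in liver CD8α high and 751 ± 266 CPM in lrNK cells and was not called. There were 41.0 ± 6.08 counts of RPL36AL per 100 of RPL36A in cNK, 41.1 ± 3.01 in liver CD8α high and 31.8 ± 3.73 in lrNK cells. How reads that match both paralogs were counted is not given in the sources used here, so the split between them is uncertain.

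RPS27L, a paralog of RPS27 known as a target of p53, was higher in most lrNK libraries without passing the test in the main edgeR fit. It was at 102, 143, 128, 88.9 and 150 CPM in cNK cells, at 137, 104, 169, 126 and 108 CPM in liver CD8α high cells, and at 164, 167, 270, 182 and 132 CPM in lrNK cells. The lrNK values overlapped those of cNK cells through pig 5, where the lrNK value was the lower of the pair. The log2 fold change from cNK to lrNK cells was 0.58 ± 0.20, with a 95% interval of 0.15 to 1.00. The adjusted p was 0.0532 from edgeR's quasi-likelihood test and 0.0355 from DESeq2. With DESeq2's size factors the edgeR test gave an adjusted p of 0.0483. It gave 0.0485 with TMM factors computed without the set and 0.0414 with library totals alone. From liver CD8α high to lrNK cells it was 0.51 ± 0.20, higher in 5 of 5 pigs, with an adjusted p of 0.112. RPS27 averaged 1799 ± 350, 1873 ± 227 and 2027 ± 486 CPM in the 3 populations, so RPS27L stood at 6.97 ± 1.97, 6.92 ± 1.30 and 9.29 ± 2.99 counts per 100 of RPS27. The lrNK library of pig 3 was the highest, at 14.2 per 100, and without it the lrNK ratio was 8.08 ± 1.41 (n = 4). The log2 fold changes of RPS27L without that library were 0.41 against cNK cells (adjusted p = 0.126) and 0.33 against liver CD8α high cells (adjusted p = 0.279).

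Further large subunit genes with small p missed the threshold. RPL3, a long protein that reaches the peptidyl transferase centre, was at 965, 1066, 881, 784 and 774 CPM in cNK cells and at 529, 721, 795, 780 and 566 CPM in lrNK cells. RPL3 was lower in lrNK cells of 5 of 5 pigs although the groups overlapped, with a log2 fold change of -0.40 ± 0.15 and an adjusted p of 0.0720 from edgeR's quasi-likelihood test. RPL23 was at 3304, 3349, 3023, 3472 and 2429 CPM in cNK cells and at 6065, 4821, 2383, 5146 and 4010 CPM in lrNK cells. Pig 3 alone went down, all other lrNK values were above every cNK value, and the log2 fold change was 0.53 ± 0.21 with an adjusted p of 0.0878. RPL29 and RPL15, chosen after their values were seen, had log2 fold changes of 0.42 ± 0.16 (adjusted p = 0.0854) and 0.31 ± 0.15 (adjusted p = 0.167). RPL29 shares 144 bases with ACY1 in the RefSeq table, and counts of ACY1 were 80.4 to 97.8% of those of RPL29 in every library, so the counts of RPL29 are uncertain. RPL9 shares 2926 bases with KLB, whose counts were 15.2% of those of RPL9 in all and 0 to 22.3% by library.

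Among small subunit genes, RPS13 was at 1245, 1218, 1118, 1174 and 1061 CPM in cNK cells and at 751.3, 918, 863, 1210 and 751.2 CPM in lrNK cells. Pig 4 alone did not go down, and the log2 fold change was -0.37 ± 0.14 with an adjusted p of 0.0696 from edgeR's quasi-likelihood test. RPSA, also known as the laminin receptor, was at 701, 717, 608, 724 and 486 CPM in cNK cells and at 296, 650, 514, 766 and 453 CPM in lrNK cells, with pig 1 far below the rest. Its log2 fold change was -0.27 ± 0.20 (95% interval -0.69 to 0.15), with an adjusted p of 0.409, and it was -0.08 without pig 1 and -0.39 without pig 4. RPS27A, which is made as a fusion with ubiquitin, averaged 1946 ± 285 CPM in cNK and 1671 ± 287 CPM in lrNK cells and was lower in lrNK cells of 5 of 5 pigs (log2 fold change -0.22 ± 0.15, adjusted p = 0.354). RPS4X, the X-linked form of its protein, averaged 1756 ± 285 and 1825 ± 601 CPM (log2 fold change 0.06 ± 0.19, adjusted p = 0.895).

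Between liver and blood CD8α high NK cells no change of a ribosomal protein gene was detected. By edgeR's quasi-likelihood test 0 of 78 genes were called higher and 0 lower, where 0.0457% of all genes tested were called higher and 0.0183% lower, and DESeq2 called 0 in each direction, where it called 0.0895% and 0.0335% of all genes. No gene of the set had an unadjusted p under 0.05, against 5.02% of all genes tested. The log2 fold changes ran from -0.23 to 0.07 with a median of -0.08 (all genes -0.02), which was -0.10 to -0.03 when a pig or a single lrNK library was left out, and 61 of 78 were below 0. The 95% interval lay within 1 log2 unit of no change for all 78 genes and within 0.5 for 51. The smallest p belonged to RPL12, a protein of the stalk's base, with 318 ± 26.8 CPM in blood and 271 ± 38.0 CPM in liver (log2 fold change -0.23 ± 0.16, adjusted p = 1.000). RPL7A, with 971 ± 131 CPM in blood and 841 ± 129 CPM in liver, and RPL31, with 1905 ± 188 and 1682 ± 214 CPM, had log2 fold changes of -0.21 ± 0.18 and -0.18 ± 0.14. RPLP0 had a log2 fold change of 0.00 (95% interval -0.37 to 0.36), RPL36AL 0.04 (-0.34 to 0.42) and RPS27L 0.07 (-0.35 to 0.50). RPLP1 and RPLP2 were at 0.07 and -0.13, RPSA at -0.05, RPS27A at -0.16, RPS4X at -0.05 and RPS27 at 0.06 on the same scale. Of the most abundant genes, RPS29 had a log2 fold change of 0.00, RPL37 -0.18, RPL5 -0.08, RPL23 0.07 and RPL23A -0.14. The liver and blood values overlapped for all 78 genes, while 2.01% of all genes tested did not overlap.

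In lrNK against liver CD8α high cells 1 of 78 genes was called higher (RPLP0) and 1 lower (RPL36AL), with 6.96% and 7.68% of all genes tested called higher and lower by edgeR's quasi-likelihood test. The median log2 fold change of the set was 0.01 (all genes 0.02), and 41 of 78 were above 0. Its sign depended on single pigs, with -0.19 without pig 4, -0.14 without the lrNK library of pig 4 alone, 0.12 without pig 3 and 0.09 without the lrNK library of pig 3 alone. The values of RPLP0 and RPL15 did not overlap between these populations, 2.56% of the set, against 11.9% of all genes tested. RPL15, a large subunit protein chosen after its values were seen, averaged 1035 ± 54.3 CPM in liver CD8α high cells against 1271 ± 235 CPM in the CD8α dim cells (log2 fold change 0.30 ± 0.15, adjusted p = 0.218). DESeq2 called 2 genes higher and 1 lower, where it called 7.66% and 7.43% of all genes, and the gene it added was RPS28, a small subunit protein beside the exit of the mRNA channel. RPS28 was at 1612, 1466, 1541, 1251 and 1295 CPM in liver CD8α high and at 1618, 1801, 2233, 2460 and 1417 CPM in lrNK cells, higher in 5 of 5 pigs with overlapping groups, and edgeR gave a log2 fold change of 0.41 ± 0.15 and an adjusted p of 0.0852, with 0.26 to 0.51 when a pig was left out, lowest without pig 4. RPL23 had a log2 fold change of 0.46 (95% interval 0.02 to 0.89) and an adjusted p of 0.172 in the same edgeR fit. It was called higher without pig 3 (0.66, adjusted p = 0.0287, all genes 5.85%) and without the lrNK library of pig 3 alone (0.62, adjusted p = 0.0127, all genes 7.33%), and was at 0.29 without pig 4. RPS13, at -0.28, was called lower without pig 4 (-0.43, adjusted p = 0.0411, all genes 6.14%) and without the lrNK library of pig 4 alone (-0.41, adjusted p = 0.029, all genes 7.12%). RPLP2 was at 0.26, with 0.04 without pig 4 and 0.37 without pig 1, and RPSA at -0.22, with -0.43 without pig 4 and -0.06 without pig 1. RPLP1 was at 0.21, RPS27A at -0.06, RPS4X at 0.10 and RPL3 at -0.27. Of the most abundant genes RPS29 was at -0.04, RPL37 at 0.02, RPL5 at -0.06 and RPL23A at 0.01. The interval stayed within 1 log2 unit for 77 of 78 genes, all but RPLP0.

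The spread between pigs was widest in lrNK cells. The median SD of log2 CPM over the 78 genes was 0.220 in cNK, 0.176 in liver CD8α high and 0.416 in lrNK cells. For the 500 most abundant other genes it was 0.217, 0.155 and 0.334, so the spread was widest in lrNK libraries there too. RPL17, a large subunit protein at the exit tunnel, had the largest SD of the set in cNK (0.502) and in lrNK cells (1.19). In some libraries most genes deviated in the same direction. The lrNK library of pig 4 had the highest lrNK level of 68 of the 78 genes, with a median deviation of 0.53 log2 units above its population mean. Among cNK libraries pig 2 was highest for 43 genes and pig 5 lowest for 54, and among liver CD8α high libraries pig 4 was lowest for 48.

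The lrNK library of pig 3 deviated in both directions. It lay below the other 4 lrNK libraries for 29 genes, 17 of the large and 12 of the small subunit, and above them for 8. Of the 500 most abundant other genes it lay below the other lrNK libraries for 148 and above them for 155. RPL17 was at 166 CPM there, against 659 to 1390 CPM in the other lrNK libraries. RPL19 was at 133 CPM against 333 to 851 CPM, and RPL34 at 547 CPM against 1497 to 2772 CPM. RPS25, RPS2, RPS15A, RPS26 and RPS29 followed, each more than 1 log2 unit below the population mean. RPS14, RPS27L and RPS9 were high instead, with RPS14, a protein of the small subunit's platform, at 835 CPM against 350 to 581 CPM and RPS9 at 1214 CPM against 710 to 889 CPM. The SD of the deviations over the 78 genes was 0.572 log2 units in this library and 0.0949 to 0.323 in the other 14. Over the 500 most abundant other genes it was 0.682 in this library and 0.147 to 0.413 in the others. With this library left out, the lrNK SD of RPL17 fell from 1.19 to 0.440. The cause of its deviation was not tested.

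**Figure D5:**
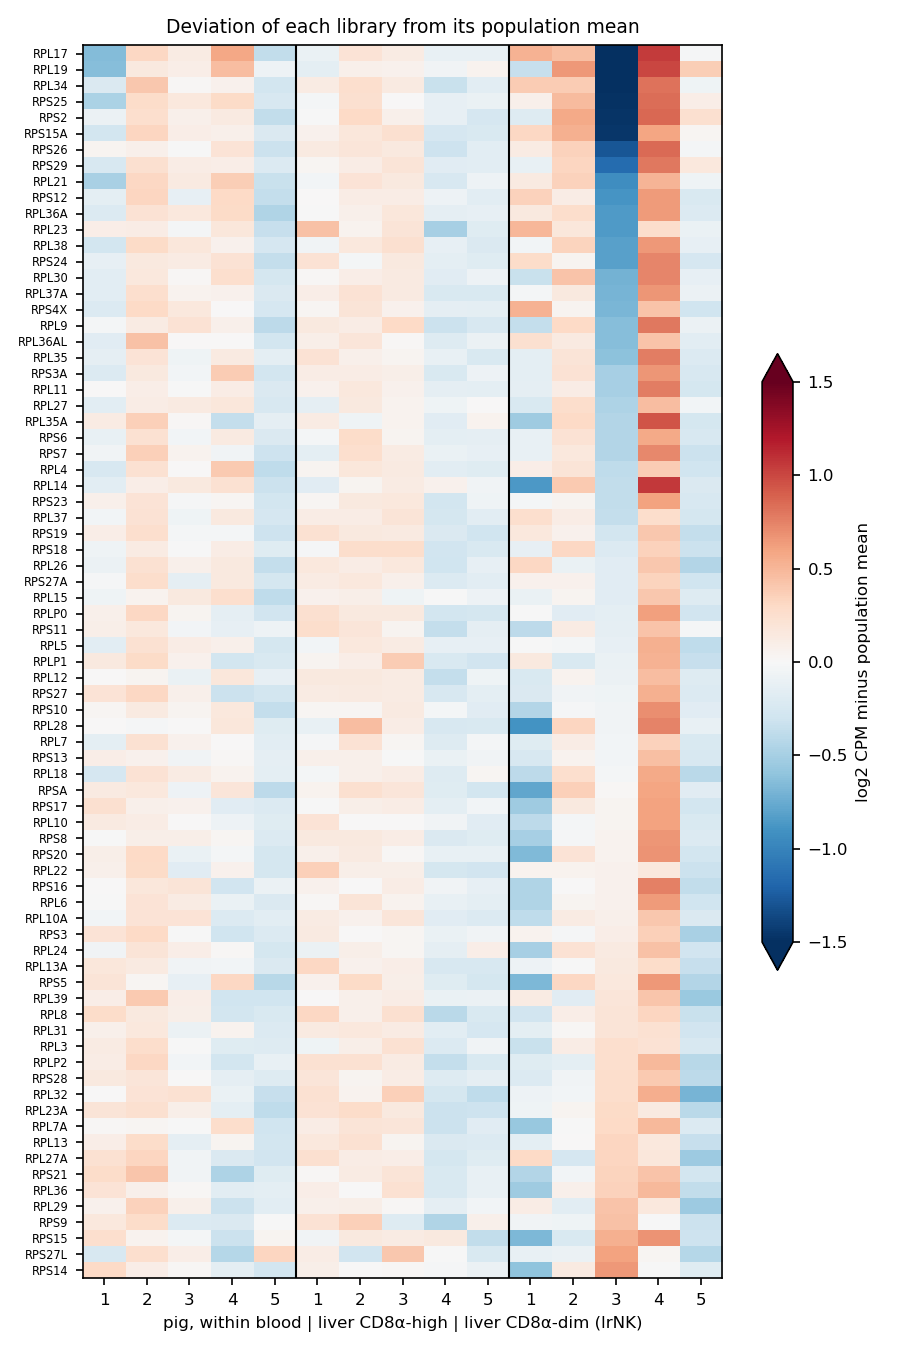
Deviation of log2 CPM from the population mean (colour, limited to 1.5 in either direction) for 77 of the 78 tested genes (rows) in 15 libraries (columns, pigs 1 to 5 within each population), ordered by the lrNK library of pig 3. That library holds the lowest values, from RPL17 down to RPS29, next to raised values such as RPS14, while the lrNK library of pig 4 is high in nearly all rows.

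Lists of related genes were compared as well. Most were drawn up by name, while those of mitochondrial ribosomal proteins and initiation factors took every matching symbol. Some genes stand in several lists. Of 22 other TOP mRNAs, which encode elongation factors and companions of the ribosome, 0 were called higher and 1 lower (all genes 9.60%) in lrNK against cNK cells, with a median log2 fold change of -0.15. The gene called was HNRNPA1, an RNA-binding protein, with 444 ± 72.6 CPM in cNK and 250 ± 50.4 CPM in lrNK cells (log2 fold change -0.83 ± 0.18, adjusted p = 0.00199 from edgeR's quasi-likelihood test). Against liver CD8α high cells HNRNPA1 and PABPC1, the poly(A)-binding protein, were called lower (all genes 7.68%), with log2 fold changes of -0.69 ± 0.18 and -0.67 ± 0.20. The last ribosomal proteins that the naming rule leaves out did not pass either test. In lrNK against cNK cells FAU, the fusion of a small subunit protein with a ubiquitin-like one, had a log2 fold change of 0.03 ± 0.15, and RACK1, the scaffold on the small subunit, of -0.04 ± 0.14. None of 6 such relatives, which include the paralogs RPL7L1, RPL22L1 and RPL26L1, was called in any comparison, where the shares of all genes called higher and lower were 8.62% and 9.60% in lrNK against cNK cells, 6.96% and 7.68% in lrNK against liver CD8α high cells, and 0.0457% and 0.0183% in liver against blood CD8α high cells.

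Of 32 ribosome biogenesis genes, 4 were called higher (all genes 8.62%) and 0 lower (9.60%) in lrNK against cNK cells, with a median of 0.29. POLR1A, the largest subunit of RNA polymerase I, was at 10.4 ± 3.36 CPM in cNK and 23.7 ± 9.56 CPM in lrNK cells (log2 fold change 1.18 ± 0.37, adjusted p = 0.0275 from edgeR's quasi-likelihood test). RRS1, an assembly factor of the large subunit, was at 16.1 ± 4.31 and 36.4 ± 7.80 CPM (1.17 ± 0.26, adjusted p = 0.00296), and NOP58, a core protein of box C/D particles, rose by 0.59 ± 0.16. DDX21, a nucleolar helicase, was the last of the 4. None of the 32 was called against liver CD8α high cells, where 6.96% of all genes were called higher and 7.68% lower, and the difference between these comparisons was not tested. A list of regulators of TOP mRNA translation also held the transcription factors MYC, MYCN and MAX, and 15 of its genes were tested. MAX, the partner of MYC, was called higher (0.59 ± 0.20, all genes 8.62%) in lrNK against cNK cells. EIF4EBP2, a repressor of cap-dependent initiation, was called lower there (-0.81 ± 0.17, all genes 9.60%). EIF4EBP2 was also called lower against liver CD8α high cells (-0.72 ± 0.17).

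Of 76 mitochondrial ribosomal protein genes tested, which build the separate ribosome of mitochondria, 4 were called higher (all genes 8.62%) and 1 lower (9.60%) in lrNK against cNK cells, with a median of 0.26. The largest changes were 1.14 ± 0.39 for MRPL44, 1.02 ± 0.33 for MRPL15 and 0.76 ± 0.23 for MRPS16. Against liver CD8α high cells only MRPL36 was called, higher (all genes 6.96%), at 20.5 ± 24.2 CPM in lrNK cells, an SD above the mean. Of 46 genes tested whose symbols begin with EIF, 7 were called higher (all genes 8.62%) and 2 lower (9.60%) in lrNK against cNK cells. Most encode translation initiation factors, and the median was 0.01. The largest change was that of EIF2AK2 (1.45 ± 0.28), the interferon-induced kinase PKR. EIF2AK2 is in the list by its symbol and is not itself an initiation factor. Next came EIF2B1, a subunit of the exchange factor of eIF2 (0.95 ± 0.27), and EIF1AX, a start codon scanning factor (-0.90 ± 0.18). Against liver CD8α high cells 3 were called higher (all genes 6.96%) and 2 lower (7.68%), among them EIF2AK2 (1.26 ± 0.28), EIF1AX (-0.67 ± 0.18) and EIF4H (-0.58 ± 0.15). In liver against blood CD8α high cells 0 genes of any of these lists were called, where 0.0457% of all genes were called higher and 0.0183% lower.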

How the data were processed

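The 15 libraries hold 3′ end sequencing of RNA from 3 NK cell populations of 5 pigs. Reads were trimmed and then aligned with HISAT2 against Sscrofa11.1 by the authors, who deposited raw counts per gene and library, not normalized. How reads were assigned to genes (tool, strand, multiple alignments) is not given in the sources used here. All columns matched a sample (0 unmatched). Replicate libraries of a population differed beyond counting noise (chi-square over degrees of freedom at least 9.41 in 30 pairs), so each was counted once.

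In R 4.3.3, edgeR 4.0.16 was run with TMM scaling, its filter on low counts by population, the quasi-likelihood test on all 15 libraries in 1 fit, and Benjamini-Hochberg adjustment over 10939 genes. CPM use the library size times its TMM factor, and deviations used log2 CPM with a prior count of 2. A call is an adjusted p under 0.05. The SE of a log2 fold change was derived from the F statistic. The scripts were tested on simulated data. Plots were made in matplotlib 3.10.9 under Python 3.11.15. Gene positions come from a RefSeq table of Sscrofa11.1 that matched all 80 genes.

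Members and lists were chosen with earlier results of these data known. The rule for naming genes took RPLP0, RPLP1, RPLP2, RPSA, RPS27A, RPS4X and members ending in L, the 5 highest by CPM, called members with 1 direction in all 5 pigs or otherwise the 3 of smallest p in each direction, members that failed the filter, and up to 3 called genes of each list. Genes also named because their count, deviation or call in another setting is given were chosen after their values were seen. Labels name the pig of each library, so same-numbered libraries are paired. Deviations from the population mean correlated at 0.107 on average within pigs and -0.0265 between pigs, and the pig was used as a replicate block in an alternative fit. Other alternatives were DESeq2 1.42.0, other scalings and filters, a stricter threshold, only the 2 populations compared, and leaving out each pig. Leaving out the lrNK library of pig 3 or of pig 4 and scaling to the summed counts of the set were added after seeing the data. Gene ontology enrichment, flow cytometry and cell culture were not analysed here, and no sequences are shown. All counts, medians and tests over the set include a gene whose own values are not reported here, and the plots by gene leave it out.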

Additional observations from a re-analysis of the deposited data

Results flagged for a closer look

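Among 78 groups of 5 libraries checked for an extreme value, 2 held one by Dixon's criterion, and chance marks about 1 in 20 such groups. Both were in the lrNK library of pig 4, the library with the largest share of counts on ribosomal protein genes. RPLP0 was at 4902 CPM there, against 2631 to 3194 CPM in the other 4 lrNK libraries. RPS27 was at 2879 CPM there, against 1707 to 1916 CPM in the others.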

How the results depend on the processing

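RPLP0 was called higher in lrNK against cNK cells in every setting run. Members called higher there numbered 1, and 3 with DESeq2, 2 with DESeq2's size factors, 2 with TMM factors computed without the set, 4 with library totals alone, 2 with scaling to the summed counts of the set, and 1 to 2 when a pig or a single lrNK library was left out. Members called lower numbered 0, and 3 with DESeq2, 1 with the replicate block (RPL36AL), and 0 to 5 when a pig or library was left out. Over these settings, at an adjusted p under 0.05, 5.41 to 9.93% of all genes were called higher and 5.86 to 10.7% lower. With library totals alone, where the set had most calls higher, 9.47% of all genes were called higher. The genes added there were RPL23, RPL29 and RPS27L. RPS27L was the gene added with DESeq2's size factors and with TMM factors computed without the set. Scaling to the set added RPL23. In lrNK against liver CD8α high cells 1 was called higher, 2 with DESeq2 and 0 to 2 when a pig or library was left out, and 1 lower, 0 at an adjusted p under 0.01, 0 with only the 2 populations compared and 0 to 2 when a pig or library was left out, while 4.18 to 7.66% of all genes were called higher and 4.76 to 8.54% lower. The median log2 fold change of the set there was -0.19 to 0.12 when a pig or library was left out and -0.02 with the replicate block. The replicate block changed no other call of a member. In liver against blood CD8α high cells 0 were called in every setting, while 0 to 0.117% of all genes were called higher and 0 to 0.0389% lower. The causes of these changes were not tested.

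Alternatives for single genes were run only for the members named by rule in each comparison and for RPL15, RPL29 and RPS28 in the lrNK comparisons. Among these, the log2 fold changes that changed sign were uncalled. When a pig or a single lrNK library was left out, those of lrNK against cNK cells ran from -0.074 to 0.26 for RPLP2, -0.13 to 0.23 for RPS4X and -0.24 to 0.19 for RPS29. Those of lrNK against liver CD8α high cells ran from -0.0052 to 0.34 for RPLP1, -0.20 to 0.0038 for RPS27A, -0.036 to 0.26 for RPS4X, -0.30 to 0.21 for RPS29, -0.11 to 0.15 for RPL37, -0.25 to 0.0042 for RPL5 and -0.099 to 0.078 for RPL23A. Those of liver against blood CD8α high cells ran from -0.043 to 0.048 for RPLP0, -0.020 to 0.13 for RPLP1, -0.12 to 0.037 for RPSA, -0.015 to 0.12 for RPL36AL, -0.025 to 0.22 for RPS27L, -0.052 to 0.064 for RPS29 and -0.019 to 0.22 for RPL23. In the same comparison RPS29 was at -0.0023 with DESeq2 and with its size factors and at -0.00076 with a stricter filter. RPLP0 was there at 0.0093 with TMM factors computed without the set, 0.029 with library totals, 0.0076 with only the 2 populations and 0.066 with scaling to the set, which put RPSA at 0.020 and RPS4X at 0.030. In lrNK against liver CD8α high cells RPL23A was at -0.0090 with no filter and, scaled to the set, at -0.014, with RPL37 at -0.031.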
